A study of Homo sapiens with 22 samples.

Results

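The origin licensing genes ORC1, ORC2, ORC3, ORC4, ORC5, ORC6, CDC6, CDT1 and GMNN were examined as 9 loci of the 19974 protein-coding genes on chromosomes 1 to 22 and X. They were chosen by function, with earlier results of these data known. Each locus was the RefSeq span of the gene on GRCh38.p14 (the hg38 assembly) with 20 kb added on each side. All rows of the 3 deposited lists (MTBP peaks, H3K4me2 peaks and initiation zones) that overlapped these windows by at least 1 bp are given.

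Licensing is the step at which a site is made ready to start DNA replication, before S phase. The origin recognition complex, built from ORC1 to ORC6, binds DNA and, with CDC6 and CDT1, loads the MCM helicase around it. Geminin, the product of GMNN, binds CDT1 and blocks further loading after S phase has begun. MTBP acts later: with its partner Treslin it helps to switch the loaded helicase on.

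The cells were DLD-1, an established cell line from a human colorectal adenocarcinoma, and every group carried at least 1 MTBP allele fused to the auxin-inducible degron mAID. CUT&RUN (antibody-directed nuclease release of bound DNA) with a FLAG antibody was done on MTBP-mAID/MTBP-deltaC-FLAG cells, whose tagged MTBP lacks its C terminus (3 libraries), on MTBP-mAID/MTBP-WT-FLAG cells (3 libraries) and on MTBP-mAID/MTBP-mAID cells, which have no FLAG tag (3 libraries). H3K4me2, a histone mark of active promoters and enhancers, and control IgG were profiled in the MTBP-mAID/MTBP-WT-FLAG line (2 libraries each). EdU-seq, the sequencing of newly made DNA labelled with EdU, was done in deltaC cells and WT cells let go from G1 into S phase under hydroxyurea and aphidicolin, and in G1-arrested WT cells (3 libraries each). Whether each line came from 1 clone is not stated in the labels.

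The lists held 29848 MTBP peaks, 62388 H3K4me2 peaks and 2473 zones on these chromosomes. Each MTBP peak had 1 deposited signal for deltaC and 1 for WT, on an unstated scale, and the other lists had 1 value per row. With no values per library, no spread between replicates could be measured and no test was run, and the depth of the libraries is unknown. The FLAG signal of the untagged cells and the IgG signal were not analysed here, so no MTBP peak could be set against its background. For H3K4me2, only the authors' fold over background was used. H3K4me2 was also looked up at marker genes of cell types. It lay on all 8 colorectal epithelial markers (EPCAM, CDH1, CDX2, VIL1, KRT20, KRT8, KRT18 and GPA33), within the gene span or 1 kb of it. It also lay on 8 of 12 marker genes of other cell types, and was absent from ALB, DES, MYH7 and COL3A1. At the start site itself, where RefSeq's promoter table gave one, H3K4me2 was present at 3 of 4 epithelial markers (not GPA33) and 0 of 4 others. Of all protein-coding genes, 65.8% had H3K4me2 within 1 kb of a start, and 86.2% had it in the span plus 20 kb. The share of all genes with H3K4me2 in the span or 1 kb of it was not computed, so these counts do not settle the cell type.

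MTBP lay at the start site of 8 of the 9 licensing genes, and the exception was CDT1. A peak within 1 kb of a start was found at 45% of the 15812 protein-coding genes that have a start site in the promoter table. All 8 peaks spanned a start site, with summits 13 to 323 bp from it, and all 8 were of the authors' promoter class. All 9 genes had H3K4me2 within 1 kb of the start, against 65.8% of protein-coding genes. Among the genes with H3K4me2 there, 68.3% had MTBP. For 4 of the 8 genes, the start of another protein-coding gene lay within 1 kb of the same peak, so the peak cannot be assigned to 1 of the pair: PRPF38A, a splicing factor gene, beside ORC1; RARS2, a mitochondrial arginyl-tRNA synthetase gene, beside ORC3; MBD5 beside ORC4; and VPS35, a retromer subunit gene, beside ORC6.

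The promoters below are RefSeq sequences on GRCh38.p14, from 250 bases before the start to 50 from the start on, read 5′ to 3′ along the gene. CDC6, ORC3, GMNN (the later of its listed starts) and CDT1 are shown because they hold a match to the E2F site, the element of many genes switched on before S phase. ORC5 and ORC6 are shown because their start peaks had the highest deltaC signal relative to WT. Capitals mark E2F sites, searched as TTTGGCGC, TTTCCCGC, TTTGCCGC and TTTCGCGC, NF-Y sites, searched as CCAAT, and GC boxes, searched as GGGCGG, on both strands.
CDC6, chr17:40287629-40287928, plus strand: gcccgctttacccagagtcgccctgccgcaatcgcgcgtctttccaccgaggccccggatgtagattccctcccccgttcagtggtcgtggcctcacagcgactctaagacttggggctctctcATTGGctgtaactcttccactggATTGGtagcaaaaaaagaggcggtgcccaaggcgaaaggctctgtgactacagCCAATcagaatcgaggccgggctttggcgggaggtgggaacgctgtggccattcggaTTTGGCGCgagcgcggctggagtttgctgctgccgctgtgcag
ORC3, chr6:87589885-87590184, plus strand: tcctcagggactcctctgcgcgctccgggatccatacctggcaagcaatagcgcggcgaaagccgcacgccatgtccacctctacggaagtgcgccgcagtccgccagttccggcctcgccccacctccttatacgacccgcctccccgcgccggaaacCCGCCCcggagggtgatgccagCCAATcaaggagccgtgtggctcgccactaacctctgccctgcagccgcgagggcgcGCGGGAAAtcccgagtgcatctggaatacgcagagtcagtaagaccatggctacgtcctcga
GMNN, chr6:24775163-24775462, plus strand: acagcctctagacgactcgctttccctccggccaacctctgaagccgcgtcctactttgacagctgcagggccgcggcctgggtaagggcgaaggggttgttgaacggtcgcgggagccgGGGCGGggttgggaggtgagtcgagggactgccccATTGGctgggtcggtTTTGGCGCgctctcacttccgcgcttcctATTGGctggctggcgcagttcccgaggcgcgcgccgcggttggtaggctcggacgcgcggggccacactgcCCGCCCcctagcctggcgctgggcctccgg
CDT1, chr16:88803539-88803838, plus strand: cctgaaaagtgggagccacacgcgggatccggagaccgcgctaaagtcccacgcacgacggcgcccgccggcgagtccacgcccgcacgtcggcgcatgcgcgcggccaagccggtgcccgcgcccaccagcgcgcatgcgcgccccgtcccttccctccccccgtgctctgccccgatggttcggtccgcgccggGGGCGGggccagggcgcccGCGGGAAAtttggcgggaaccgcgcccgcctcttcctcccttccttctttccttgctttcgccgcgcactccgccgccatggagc
ORC5, chr7:104207964-104208263, minus strand: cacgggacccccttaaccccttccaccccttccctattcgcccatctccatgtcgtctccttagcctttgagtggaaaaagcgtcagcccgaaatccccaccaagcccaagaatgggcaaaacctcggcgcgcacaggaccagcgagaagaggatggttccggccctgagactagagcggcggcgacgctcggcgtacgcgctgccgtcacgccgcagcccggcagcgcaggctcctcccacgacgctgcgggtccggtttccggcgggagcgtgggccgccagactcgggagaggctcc
ORC6, chr16:46689409-46689708, plus strand: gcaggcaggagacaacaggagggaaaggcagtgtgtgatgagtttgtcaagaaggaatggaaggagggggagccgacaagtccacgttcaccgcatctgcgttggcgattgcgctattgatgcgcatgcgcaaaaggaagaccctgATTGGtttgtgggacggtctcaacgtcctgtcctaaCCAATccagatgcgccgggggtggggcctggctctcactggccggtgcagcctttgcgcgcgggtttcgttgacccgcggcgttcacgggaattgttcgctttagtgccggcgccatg

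An E2F match was present in the promoters of 4 of the 9 genes, against 5.41% of the 15812 genes with a promoter in the table. By start site, it was in 4 of the 11 listed for the members, against 4.11% of 22132. No E2F match overlapped an NF-Y or GC box match. The ORC3 match, at chr6:87590123-87590130 on the opposite strand, lay 1 bp from the summit of the MTBP peak. The matches at CDC6 (chr17:40287886-40287893) and GMNN (chr6:24775333-24775340) were also inside MTBP peaks, 270 and 214 bp from the summits. The match at CDT1 (chr16:88803754-88803761) was in no MTBP peak. An NF-Y match was present at 6 of the 9 genes, against 42.1%, and a GC box at 6, against 64.2%. The CHR element of late cell cycle genes, searched as TTTGAA and TTCGAA on both strands, was in 0 of the 11 promoters and 13.7% of all. A match is a run of letters and not evidence of a bound factor. Only the listed words were searched, so other forms of these sites are unmarked and uncounted, and a promoter without a match may still hold one.

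The 9 windows held 16 MTBP peaks in 754 kb, or 21.2 per Mb, and each window had at least 1. Of all protein-coding genes, 71.1% had a peak in a window drawn the same way, and those windows together held 14.4 peaks per Mb. Without CDC6, the density over the other 8 windows was 17.2 per Mb. The median window had 1 peak for the members and 1 for all genes. By the authors' classes, 13 of the 16 were at promoters and 3 at enhancers or super-enhancers, and 34.7% and 17.6% of all MTBP peaks had these classes. Beside the 8 peaks at member starts, 5 lay within 1 kb of the start of a neighbouring gene and 3 were near no start. All 16 overlapped an H3K4me2 peak, as did 98.9% of all MTBP peaks, and 14 were covered by one along their whole length, against 90.3%. All 16 were named by the authors for the WT line, as were 28971 of the 29848 peaks, and 877 were named for deltaC.

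**Figure D1:**
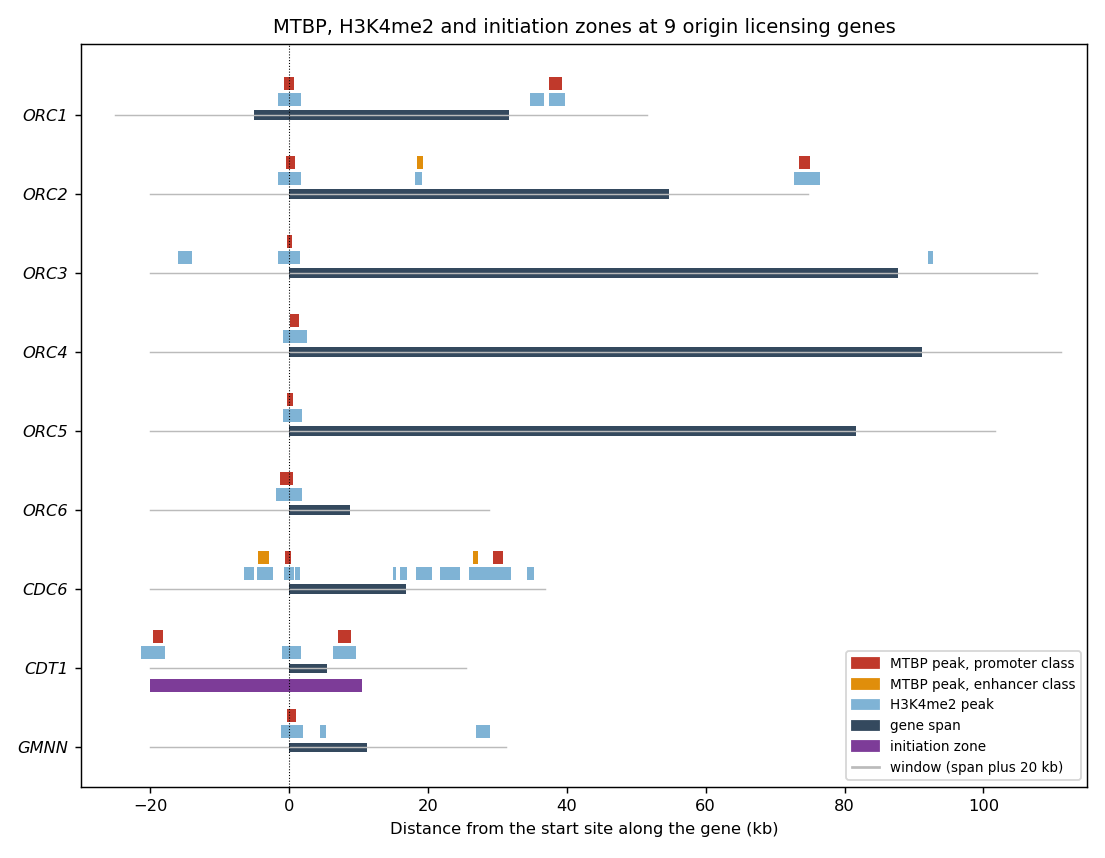
Map of the 9 loci, with distance from the start site in kb along the gene on the x axis (for ORC4 and GMNN, the start listed first). Boxes are MTBP peaks by the authors' class, H3K4me2 peaks, gene spans and the part of the initiation zone inside the window, and very short peaks are drawn at a minimum width. MTBP lies at the start of 8 genes, and CDT1, with no peak at its start, is the gene inside a zone.

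The deltaC signal was lower than the WT signal at all 16 peaks in the deposited units. After centring on the median ratio of all MTBP peaks, 6 of the 16 turned positive. By construction, such centring leaves as many of all peaks positive as negative. A lower deltaC signal was found at 95.5% of all MTBP peaks, and the scaling of the 2 lines to each other is not stated. All 16 peaks, like 28971 of the 29848 in the list, were named for the WT line. If peaks were taken for their WT signal, counts of lower and higher deltaC signal were partly set by that, which was not tested. The common fall thus cannot be read as a property of these genes. The deltaC signal ranged from 69.8 to 603 (median 229) over the 16 peaks, and the WT signal from 254 to 863 (median 488). The median log2((deltaC + 1)/(WT + 1)) was -1.12 over the 16 peaks and -0.93 over all peaks, whose quartiles were -1.32 and -0.59. At the 8 start peaks it was -0.999, and over the 10363 peaks of the promoter class -0.97. A deltaC signal lower than WT by at least 2-fold on this log2 scale was found at 9 of the 16 peaks and 4 of the 8 start peaks, against 44.9% of all peaks. A deltaC signal at least 2-fold above WT was found at 0 of the 16, against 0.419% of all. The members thus lay close to the list as a whole, and the values below show how they differed among themselves.

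**Figure D2:**
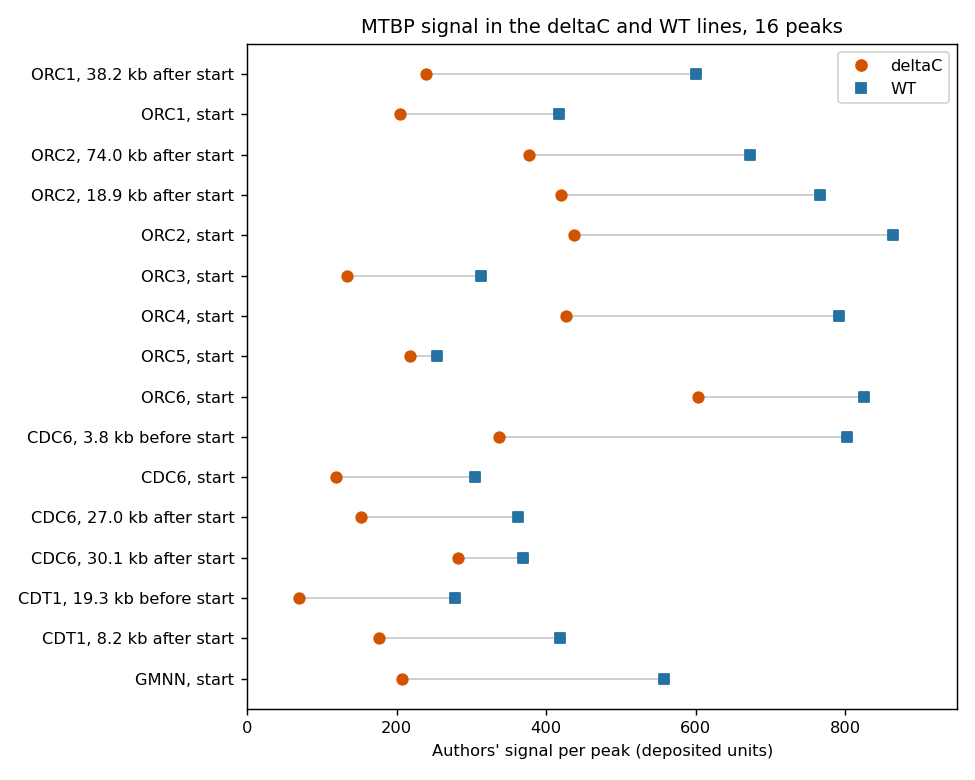
Authors' MTBP signal per peak in the deposited units (x axis) for deltaC (circles) and WT (squares) at each of the 16 peaks, named by gene and by the place of the summit relative to the start. Each pair is 1 deposited value per line, without error. In these units the circle lies left of the square in all 16 rows, with the shortest line at the ORC5 start. After centring on the median ratio of all peaks, which by construction splits the list evenly, 6 of the 16 turn.

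ORC1 encodes the largest ORC subunit, an ATPase. Its start peak, chr1:52403756-52405205, had a signal of 205 in deltaC cells and 417 in WT cells (log2 ratio -1.02, score 190), with the H3K4me2 peak around it at a fold of 20.6. The summit was 323 bp before the start, toward PRPF38A, whose start is also within reach of the peak. A further peak, at chr1:52365197-52366932, lay at the start of the neighbour CC2D1B, 37.5 kb from the ORC1 start. Its signals of 239 in deltaC cells and 600 in WT cells (log2 ratio -1.32, score 180) were both higher than those at ORC1 itself. The ORC1 window had 3 H3K4me2 peaks, and the strongest of them (fold 31.4) held no MTBP.

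ORC2 encodes a core subunit of the complex, and its start peak had the highest WT signal of the 16. The peak, chr2:200962848-200964136, had 438 in deltaC cells and 863 in WT cells (log2 ratio -0.98, score 577), with an H3K4me2 fold of 31.1. This WT signal was above those of 92.5% of all MTBP peaks. Inside the gene, 18.4 kb from the start, was a peak of the enhancer class, chr2:200944424-200945259, annotated by the authors to a DNA transposon. It had 420 in deltaC cells and 767 in WT cells (log2 ratio -0.86), on an H3K4me2 peak of fold 10.4. The third, chr2:200888587-200890227, lay within 1 kb of the starts of PPIL3 and NIF3L1, with 377 in deltaC cells and 672 in WT cells (log2 ratio -0.83). All 3 peaks of this window were thus above the list medians, which were 201 for deltaC and 371 for WT.

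ORC3, ORC4 and ORC5 encode further subunits of the complex, and each had its start peak and no other MTBP peak. The ORC3 peak, chr6:87589755-87590503, had 133 in deltaC cells and 312 in WT cells (log2 ratio -1.22, score 140), both below the list medians. The ORC4 peak, chr2:148020151-148021434, had 427 in deltaC cells and 792 in WT cells (log2 ratio -0.89, score 550). It spanned the start at 148020737 and ended short of the other start that RefSeq lists, at 148021551. The ORC5 peak, chr7:104207431-104208369, had 218 in deltaC cells and 254 in WT cells (log2 ratio -0.22, score 112). ORC5 thus had the lowest WT signal of the 16 peaks and the deltaC signal nearest to it, at 86.0% of WT. Its ratio was above those of 91.4% of all MTBP peaks and 90.6% of those on chromosome 7. The peak was weak in the list: its WT signal was above those of only 23.9% of all MTBP peaks, and its score above those of 13.2%. The H3K4me2 peak at the ORC5 start had a fold of 39.7, the highest at a member start, against 24.4 at ORC3 and 23.1 at ORC4.

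ORC6 encodes the smallest subunit, and its start peak had the highest deltaC signal of the 16. The peak, chr16:46688264-46690152, had 603 in deltaC cells and 826 in WT cells (log2 ratio -0.45, score 485), with an H3K4me2 fold of 28.6. The deltaC signal was above those of 97.1% of all peaks, and the ratio above those of 85.4% of the peaks on chromosome 16. The peak was 1889 bp wide, against a median of 938 bp in the list.

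CDC6, the ATPase that joins ORC to load the helicase, had the most MTBP peaks, 4, and the most H3K4me2 peaks, 10. The peak at its start, chr17:40287272-40288185, had 119 in deltaC cells and 305 in WT cells (log2 ratio -1.35, score 190), the lowest deltaC signal at a member start. A peak of the enhancer class before the start, chr17:40283314-40284903, had 337 in deltaC cells and 802 in WT cells (log2 ratio -1.25, score 434). It was stronger in both lines than the peak at the start, and its H3K4me2 fold was 25.7, against 10.4 at the start. The other MTBP peaks lay in RARA, the retinoic acid receptor alpha gene downstream, inside an H3K4me2 peak of 6030 bp and fold 42.2. The one of the enhancer class, chr17:40314411-40315052, had 153 in deltaC cells and 363 in WT cells (log2 ratio -1.24). The one at a RARA start, chr17:40317241-40318669, had 282 in deltaC cells and 369 in WT cells (log2 ratio -0.38). On chromosome 17 the median log2 ratio was -1.22, the lowest of the 23 chromosomes, so the first 3 of these peaks were close to their chromosome and the RARA start peak was above 93.4% of it.

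CDT1, which brings the MCM helicase to ORC and CDC6, had no MTBP peak within 1 kb of its start, and the nearest was 7036 bp away. H3K4me2 was present at the start, at chr16:88802690-88805411, with a fold of 13.4, below the list median of 14.4 and higher only than CDC6 among the member starts. The nearest MTBP peak, chr16:88810825-88812753, lay at the start of APRT, the adenine salvage enzyme gene next to CDT1. It had 176 in deltaC cells and 419 in WT cells (log2 ratio -1.24, score 112), and its H3K4me2 fold was 27.1. The other, chr16:88784098-88785633, at the start of the ion channel gene PIEZO1, had 69.8 in deltaC cells and 278 in WT cells. Its log2 ratio of -1.98 was the lowest of the 16 peaks and above those of 7.04% of all peaks.

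GMNN had its start peak and no other. The peak, chr6:24774638-24775843, covered both start sites that RefSeq lists, with the summit between them, and had 207 in deltaC cells and 558 in WT cells (log2 ratio -1.43, score 266). This was the lowest ratio at a member start, above those of 20.1% of all peaks and 15.1% of those on chromosome 6. The H3K4me2 fold at the start was 20.6, and the other H3K4me2 peaks of the window, with folds of 9.94 and 18.8, held no MTBP.

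**Figure D3:**
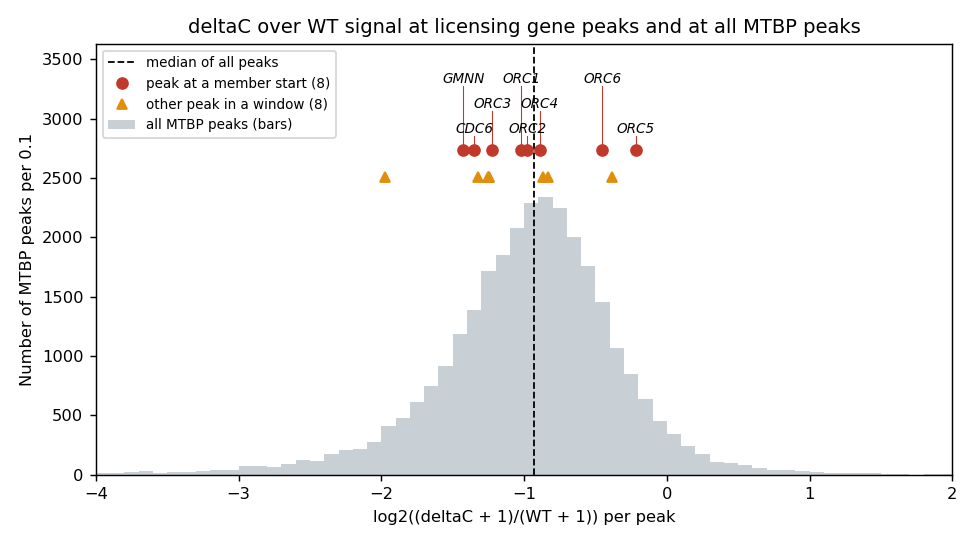
Histogram of log2((deltaC + 1)/(WT + 1)) over all MTBP peaks (bars, number of peaks per 0.1 on the y axis), with the 8 peaks at member starts (circles, named) and the 8 other peaks of the windows (triangles) placed above it at no scale. The dashed line is the median of all peaks, -0.93, and 329 peaks below -4 and 25 above 2 are outside the axis. The members spread over both sides of the median, from GMNN at -1.43 to ORC5 at -0.22 among the start peaks.

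In order of WT signal, the start peaks ran from ORC2 (863) through ORC6 (826), ORC4 (792), GMNN (558), ORC1 (417), ORC3 (312) and CDC6 (305) to ORC5 (254). In order of deltaC signal they ran from ORC6 (603) through ORC2 (438), ORC4 (427), ORC5 (218), GMNN (207), ORC1 (205) and ORC3 (133) to CDC6 (119). ORC2, ORC4 and ORC6 were thus the highest in both lines, and ORC5 moved from the lowest place in WT to the fourth in deltaC. Whether neighbours in these orders differ beyond the spread between cultures was not tested, for want of library values. The median over the 8 start peaks was 213 in deltaC cells and 488 in WT cells, against 224 and 427 over the 7104 genes with both an MTBP and an H3K4me2 peak at the start. In a distance over these 2 signals and the H3K4me2 fold at the start, all on the log2 scale and each divided by its SD over the 7104 genes, the non-members nearest to the members' median were SKIL (0.0722 SD), TMTC4 (0.0799 SD) and SPPL2A (0.0903 SD). The 8 members themselves lay farther from that median, from 0.451 SD at GMNN to 2.41 SD at CDC6. Nearness to the median thus does not mean likeness to any single member.

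H3K4me2 was present in all 9 windows, with 28 peaks or 37.1 per Mb, against 28.6 per Mb in the windows of all protein-coding genes. CDC6 held 10 of the 28, and without it the density was 25.8 per Mb, below that of all genes. The median window had 3 peaks for the members and 3 for all genes. At least 1 peak was found for 86.2% of all those genes. The 15 peaks with MTBP had folds from 10.4 to 42.2 (median 25.7) and a median width of 3295 bp. The 13 without MTBP had folds from 2.82 to 31.4 (median 10.8) and a median width of 1486 bp. The groups overlapped: the peak of fold 31.4 near ORC1 had no MTBP, and those at the CDC6 start and in the body of ORC2 had MTBP at folds of 10.4. Over all H3K4me2 peaks the median fold was 14.4 and the median width 1408 bp. The whole list was not split by MTBP, so the difference between the groups cannot be read as particular to these windows. In the CDC6 window, 3 of 10 H3K4me2 peaks held MTBP, the highest of them 2 MTBP peaks, and in the ORC4, ORC5 and ORC6 windows the only H3K4me2 peak was the one at the start.

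**Figure D4:**
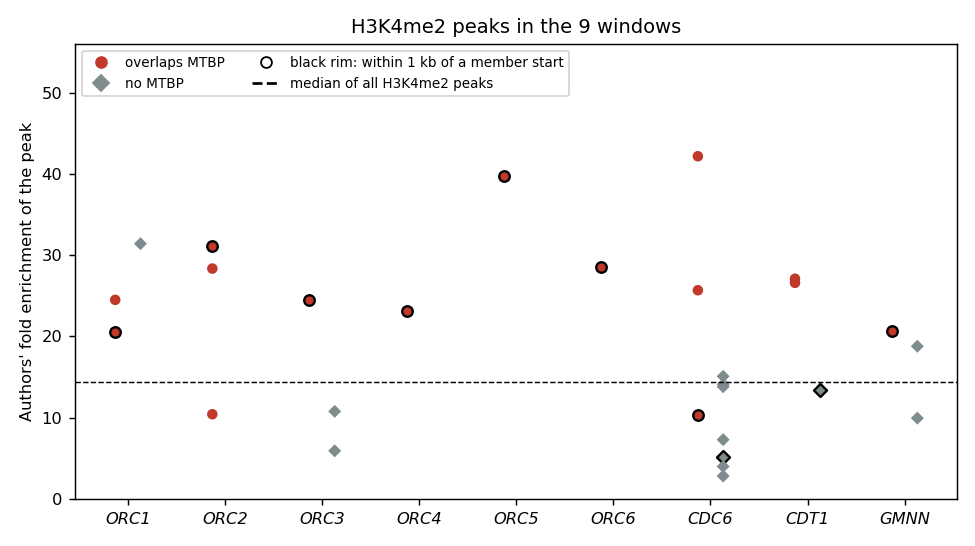
Authors' fold enrichment (y axis) of each of the 28 H3K4me2 peaks in the windows of the 9 genes (x axis), split by overlap with MTBP (circles) or none (diamonds), with a black rim for peaks within 1 kb of a member start. The dashed line is the median of all H3K4me2 peaks, 14.4. The CDT1 start peak, at 13.4, has no MTBP, while the start peaks with MTBP run from 10.4 at CDC6 to 39.7 at ORC5.

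Of the 9 genes, CDT1 alone had an initiation zone in its window, against 32.1% of all protein-coding genes. The zone, chr16:88761924-88814301, was 52.4 kb wide with a score of 1345, higher than 77.3% of all zones. It held the whole of CDT1 and APRT with parts of PIEZO1 and GALNS, 6 H3K4me2 peaks and 5 MTBP peaks, 2 of them in the CDT1 window. The CDT1 start lay 41.9 kb from one end of the zone and 10.5 kb from the other. Of the 8 MTBP peaks at the other licensing gene starts, 0 overlapped a zone, against 26.2% of the 6705 MTBP peaks within 1 kb of a protein-coding start and 23% of all MTBP peaks. This 0 follows from the absence of a zone in those windows and is not a separate result.

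The other 8 genes lay at very different distances from a zone. ORC2 was 44.95 kb from a zone over BZW1 and CLK1 (score 808) and CDC6 was 45.2 kb from one over WIPF2 and RAPGEFL1 (score 2509), which held 5 MTBP peaks. ORC6 was 142 kb, ORC1 218 kb and ORC5 700 kb from the nearest zone. ORC3 was 1921 kb away, GMNN 4137 kb and ORC4 4147 kb, with no zone within 1000 kb of any of these 3. The median was 218 kb over the members and 160 kb over all protein-coding genes, of which 24.6% were more than 1000 kb from a zone. The zones come from cells given 10 µM EdU for 3 hr under drugs that slow DNA synthesis, and sites that start after that time were not assayed.

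**Figure D5:**
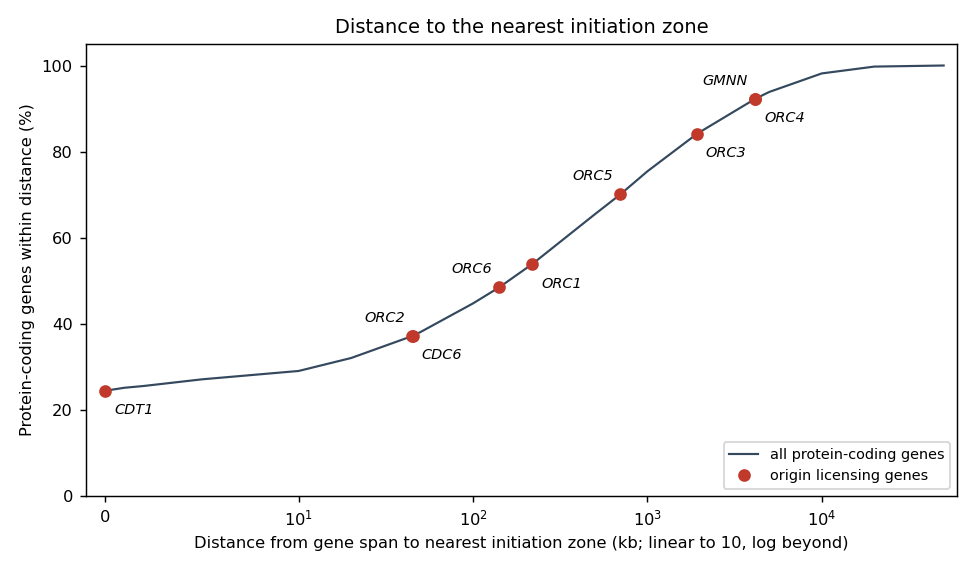
Share of protein-coding genes (y axis, %) within a given distance of the nearest initiation zone (x axis, kb from the gene span, linear to 10 and log beyond), as a line, with the 9 licensing genes placed on it. CDT1 is at 0 kb, where 24.5% of genes lie, and ORC4 and GMNN are at the far end, where 92.2% of genes are as near or nearer.

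Other genes of licensing control were set beside them: 7 of the MCM helicase and its binding protein, 3 of ORC partners and 14 of turnover and inhibition. This list was also chosen with earlier results of these data known, so its counts are a description. Of the 24, 23 had an MTBP peak in the window, 24 had H3K4me2 and 11 had a zone, against 71.1%, 86.2% and 32.1% of all protein-coding genes. A start site was listed for 20, and 17 of these had MTBP within 1 kb of it, against 45%. The 3 without were MCMBP, LRWD1, which encodes an ORC-binding protein, and CCNF, which encodes the cyclin F that helps to degrade CDC6, and their starts had H3K4me2 folds of 26.3 to 38.6. In the deposited units the deltaC signal was lower than WT at all 17 start peaks, as at 95.5% of all MTBP peaks. The median log2 ratio was -0.99, and 8 of the 17 were lower by at least 2-fold, against 44.9% of all MTBP peaks. The lowest ratio was at FZR1, an activator of the ubiquitin ligase that marks geminin for destruction, with 103 in deltaC cells and 553 in WT cells (log2 ratio -2.41). The highest was at CDC20, another activator of that ligase, with 365 in deltaC cells and 400 in WT cells (log2 ratio -0.13). SKP2 and DTL encode parts of ubiquitin ligases that mark CDT1 for destruction. The signal at the SKP2 start was 192 in deltaC cells and 334 in WT cells, and that at the DTL start was 363 in deltaC cells and 946 in WT cells. The helicase genes MCM2, MCM5 and MCM7 overlapped a zone, whereas MCM3 and MCM6 were 4805 and 4727 kb from one.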

How the data were processed

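The deposited MTBP peak list gives, per the file headers, a score and a signal for the WT and deltaC lines for each peak, and the authors' zone list an average score. The deposited H3K4me2 list has MACS2's layout, with a score, a fold (ratio) over background, and −log10 q values, which were not used in a result. Per the submitters' processing notes, Trim Galore, Bowtie2, MACS2 and HOMER were used with hg38. Not given in the sources used here: tool versions, parameters, pooling of replicates and scaling. The planned count test needed library values, and 0 columns per sample were left unused. Chromosome Y was left out.

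Spans, start sites and promoters came from RefSeq (GRCh38.p14): all 9 symbols matched, and 15812 of 19974 protein-coding genes had a promoter. Overlap was at least 1 bp, a start peak lay within 1 kb, and ratios used a pseudocount of 1 (Python 3.11.15, pandas 2.3.3). MTBP and zone coordinates are as deposited, and H3K4me2 starts were made 1-based. The overlap and ratio steps were tested on simulated data. Members and lists were chosen with earlier results of these data known. All 9 members are named with every overlapping row, neighbours by nearness to a peak, and promoters are shown for part of the genes with a peak over the promoter, plus CDT1. The genes of licensing control and the markers named singly were chosen after their values were seen. Alternatives were the flank, overlap, score limits, start distance, pseudocount and centring. P-values were not computed.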

Additional observations from a re-analysis of the deposited data

How the results depend on the processing

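No paired analysis was possible because the lists hold no values per library. Of 31 alternatives for the counts and the median ratio, 22 stayed within 1.5 times of the reported value. Without any flank the MTBP peaks were 9 and the H3K4me2 peaks 14, and with 50 kb the H3K4me2 peaks were 43. Keeping peaks of at least the median score left 10 MTBP and 16 H3K4me2 peaks, a limit that by definition keeps at least as many of all peaks as it drops. With a 50-kb flank 3 of the 9 members had a zone, against 38.1% of all protein-coding genes. With no flank 6 of the 24 other genes had one, against 24.5%. Start peaks were found at 8 members whether the peak had to span the start or lie within 5 kb. Centring on the median over all MTBP peaks moved the median log2 ratio to -0.19, and 6 of the 16 peaks turned positive: ORC2 (0.098 and 0.067, the peaks other than the start peak), ORC4 (0.041), ORC5 (0.72), ORC6 (0.48) and the RARA start peak at CDC6 (0.55). Centring on the peak's own chromosome, chosen after seeing the data, gave a median of -0.058, with 5 positive: ORC2 (0.043 and 0.012), ORC5 (0.65), ORC6 (0.60) and the RARA start (0.83). By construction, either centring leaves as many of all peaks positive as negative. Pseudocounts of 0.1 and 10 changed no sign. Leaving out libraries was not possible. The lists limit precision to what the authors kept.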

Other observations

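The nearest MTBP peaks beyond the 20-kb line varied in distance. At ORC3, a peak at the start of AKIRIN2 lay 23.9 kb from the gene span (191 in deltaC cells and 273 in WT cells). At CDT1, a further peak of the same zone lay 32.3 kb away (332 in deltaC cells and 575 in WT cells), and at GMNN the next was at the start of C6orf62, 53.0 kb away (249 in deltaC cells and 509 in WT cells). ORC5 was the most isolated: its next MTBP peak was 676 kb away (493 in deltaC cells and 935 in WT cells). The farthest peaks inside the line were those of PPIL3 and NIF3L1 at ORC2, 18.75 kb from the span, and of PIEZO1 at CDT1, 18.2 kb from it.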
